A study of Mus musculus with 12 samples.

Results

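SB2 and BS2, the pair of groups labelled as day 2 after photothrombosis (PT), were compared across the genes of the count table. PT blocks small vessels by laser light after injection of the dye Rose Bengal, and the mice were wild-type adult BALB/c males. SB2 carries the label brain cortex on day 2 of an ischemic injury made in the skull, and BS2 the label interparietal bone, a bone of the skull roof, on day 2 of an injury made in the brain. Each group held 3 libraries, described in the methods as biological replicates, so the comparison used 6 of the 12 libraries of the series and 17252 of its 22317 genes passed the filter on low counts. The other 6 libraries, brain cortex on day 4 after skull PT (SB4) and interparietal bone on day 6 after brain PT (BS6), entered only where stated, and uninjured controls were not analysed here. The methods state that the tissue pieces held ischemic and peri-ischemic regions, and do not say how this applies to the tissue that was not injured. A library averages all cells of a piece.

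Flat bone of the skull is built by osteoblasts, which secrete type I collagen and mineralize it, and is resorbed by osteoclasts, which release acid and proteases onto the bone surface. Its marrow makes granulocytes, monocytes, platelets, red cells and B cells. Brain cortex consists of excitatory and inhibitory neurons, oligodendrocytes that wrap axons in myelin, astrocytes that clear transmitter, microglia and a vessel wall that forms the blood-brain barrier.

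The labels of tissue were first set against defining markers, and they went against them in all 6 libraries. Col1a1 (chr11:94936224-94953042, GRCm38/mm10, gene span in GENCODE M21), the main chain of type I collagen, stood at 33800, 33500 and 36700 CPM (counts scaled to a common library size) in the SB2 libraries and at 3.89, 9.41 and 8.64 CPM in the BS2 libraries. Ibsp, the bone sialoprotein of mineralizing matrix, stood at 3540, 2120 and 3990 CPM in SB2 and between 0.118 and 0.218 CPM in BS2. Snap25, a fusion protein of nerve terminals, stood at 21.8, 8.92 and 24.8 CPM in SB2 and at 3320, 3340 and 3340 CPM in BS2. The libraries labelled brain cortex thus carried the bone transcripts, the libraries labelled interparietal bone carried the brain transcripts, and no library held both at a high level. The names SB2 and BS2 are kept as library names below and are not read as tissues. In bulk tissue, fewer cells of a type and less RNA per cell cannot be told apart.

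**Figure D1:**
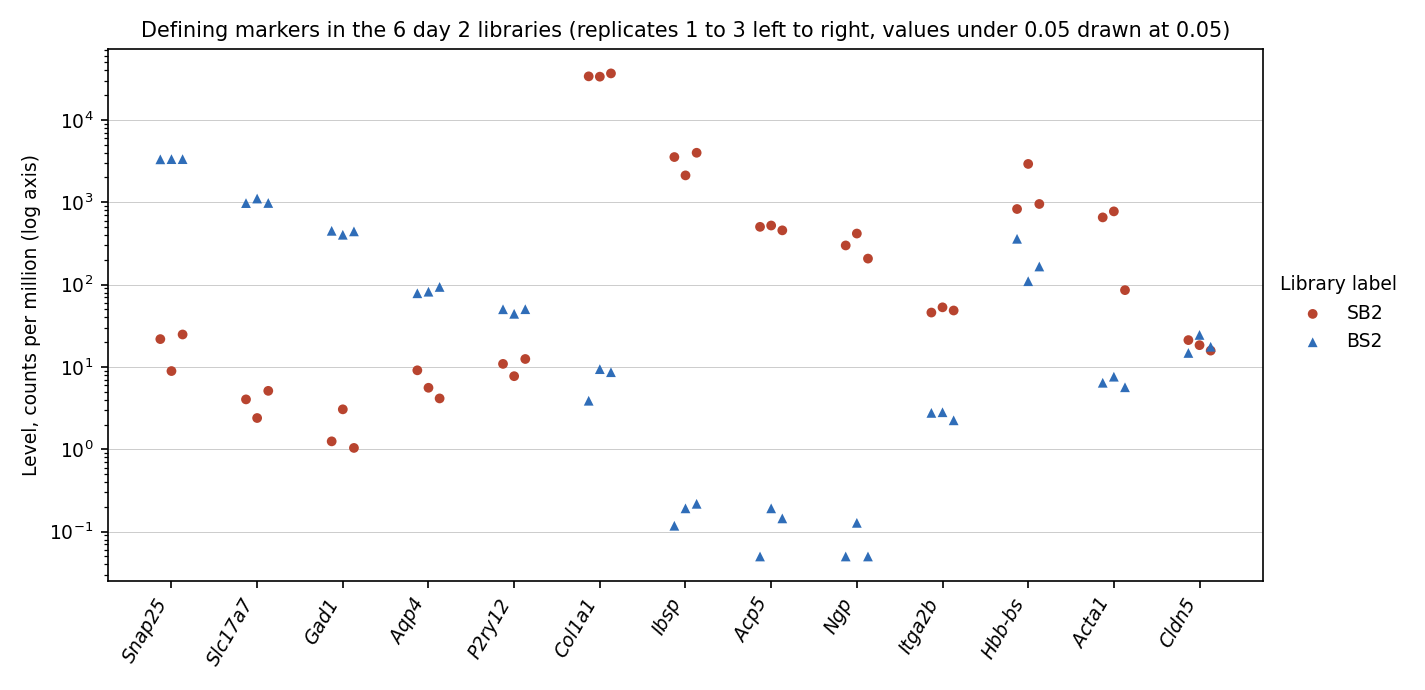
Level in CPM on a log axis of 13 markers in the 3 SB2 and 3 BS2 libraries, 1 point a library. Neuronal and glial markers from Snap25 to P2ry12 sit higher in every BS2 library, bone, marrow and blood markers from Col1a1 to Hbb-bs and the muscle gene Acta1 sit higher in every SB2 library, and Cldn5 overlaps.

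Totals were 14126082 to 16988400 counts in the 6 libraries, at which 3 counts equal 0.18 to 0.21 CPM. Mitochondrial transcripts took 3.59% to 4.34% of counts in SB2 and 5.89% to 7.07% in BS2, and the 10 genes with the most counts took 14% to 15.3% and 7% to 8.07%.

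The SB2 libraries were not alike. Of 6540 genes at 30 CPM or more in SB2, 67 spanned more than 1 log2 unit between its libraries, against 5 of 6399 genes in BS2. The 11 skeletal muscle genes in the table summed to 2852, 3637 and 440.1 CPM in SB2 replicates 1, 2 and 3, and to 68.35 to 76.78 CPM in BS2. Most of the BS2 sum came from Pvalb, which interneurons also express, at 56.9 CPM on average. Myh1, a fast myosin heavy chain, read 577, 912 and 90.8 CPM in SB2, and Ttn, the giant spring protein of the sarcomere, read 360, 413 and 53.2 CPM. Muscle transcripts were thus lowest in replicate 3 among the SB2 libraries. Some genes of the pineal gland, which lies under the skull roof, followed another order. Rbp3, a retinoid-binding protein shared by pineal gland and retina, read 62.8, 0.733 and 89.1 CPM in SB2 and 0 in the BS2 libraries. Tph1, the first enzyme of melatonin synthesis, read 50.3, 3.33 and 101 CPM in SB2 and at most 0.291 CPM in BS2. Tph1 was called (log2 fold change 8.34) but lost the call without BS2 replicate 1, 2 or 3 (8.17, 7.97 and 9) or SB2 replicate 1 (8.37) and moved to 7.41 without SB2 replicate 3, and Rbp3 was not called in the edgeR fit of the 6 libraries but was called without SB2 replicate 2 (13.25), with DESeq2 (12.03), in the fit of all 12 libraries (12.67) and with a replicate block (12.62). Both genes were thus lowest in SB2 replicate 2. The 12 listed pineal genes summed to 299, 14.45 and 491 CPM in SB2 and 650.5 to 688.1 CPM in BS2. Most of the BS2 sum came from Chgb and Chga, granins that neurons also express, at 514 and 132 CPM on average. The sum is therefore no measure of pineal tissue in BS2. Against BS2, not every member was higher. Aanat, a later enzyme of melatonin synthesis, read 0.342, 0.2 and 0.427 CPM in SB2 and 1.18, 1.22 and 1.89 CPM in BS2 and was lower in SB2, as were Chga and Neurod1, which neurons also express. Haemoglobin and red cell genes followed yet another order, with summed levels of 1300, 4617 and 1462 CPM in SB2. In BS2, Ptgds, a prostaglandin synthase of the meninges, read 249, 587 and 518 CPM and Hbb-bs, an adult beta globin, read 360, 110 and 166 CPM. The part of adjoining tissue and blood in the results below was not tested, and the pineal genes were listed after the values had been seen.

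**Figure D2:**
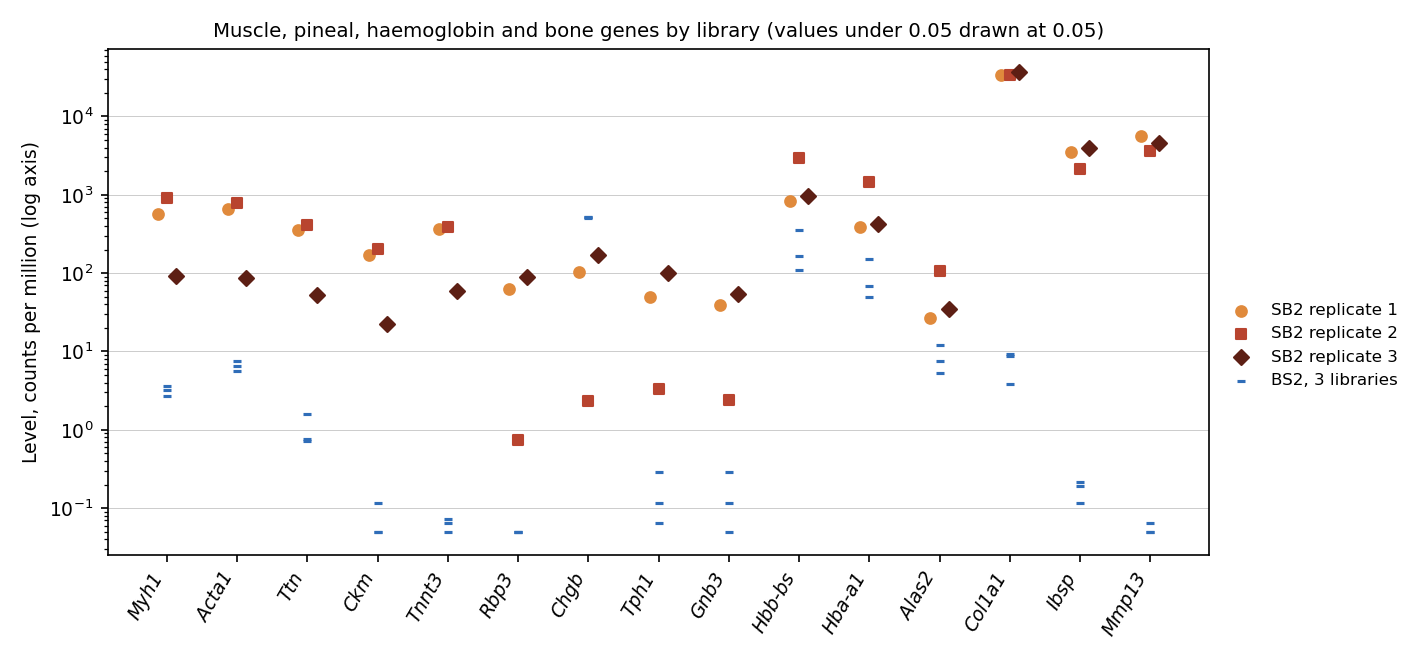
Level in CPM on a log axis of 15 genes of muscle, pineal gland, red cells and bone, with 1 symbol for each SB2 replicate and dashes for the BS2 libraries. Muscle genes drop in SB2 replicate 3, the 4 genes from Rbp3 to Gnb3 drop in SB2 replicate 2, red cell genes peak in SB2 replicate 2, and Col1a1 is nearly level.

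The call asked for a log2 fold change above 1 or below -1 and for an adjusted p (edgeR quasi-likelihood test, Benjamini-Hochberg) below 0.05. By this rule 4927 genes were higher in SB2 (28.6% of those tested) and 4770 were lower (27.6%), so 56.2% of all genes tested were called. The log2 fold change, SB2 over BS2, had a median of 0.01 and a median size of 1.24. Libraries of SB2 and BS2 did not overlap in 14697 genes (85.2%). The calls ran to large sizes, with 742 genes above a log2 fold change of 5 and 1008 genes below -5. Of 876 genes at 100 CPM or more in both groups, 626 were not called.

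A set of 10 genes with 100 CPM or more in SB2 had no more than 3 counts in any BS2 library, namely Mmp13, Ibsp, Acp5, H19, Ngp, Tnnt3, Ltf, Ckm, Lrrc17 and Atp6v0d2, of which Lrrc17 was picked after its values were seen. Mmp13 (chr9:7272514-7283331), the collagenase of osteoblasts and hypertrophic cartilage, read 5610, 3620 and 4540 CPM in SB2. A single Mmp13 count was found in the 3 BS2 libraries together, which gave a ratio of 215000 with a 95% counting interval from 38600 to 8490000. Its fitted log2 fold change of 17.24 ± 0.37 (SE) became 19.15 without BS2 replicate 2, which held that count. Atp6v0d2 (chr4:19876841-19922605), a proton pump subunit of osteoclasts, read 104, 107 and 107 CPM in SB2 with no count in BS2 and was at least 543-fold higher. Ngp, a granule protein of neutrophil precursors, read 299, 417 and 207 CPM against 2 counts in all, a ratio of 7050 (1950 to 58200). Its fitted value moved to 15.25 without BS2 replicate 2, and those of Ltf and Acp5, 10.73 and 12.04, to 11.39 and 12.7. Without BS2 replicate 1 Ltf and Acp5 moved to 10.1 and 11.42. By the rule that chose these genes, nearly all of their counts in the day 2 libraries lay in SB2.

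Another 5 genes were one-sided the other way, at 100 CPM or more in BS2 with no more than 3 counts in any SB2 library: Fam163b, Pnmal1, Cacng3, Lamp5 and Slitrk1. Cacng3 (chr7:122670492-122769393), an auxiliary subunit of AMPA-type glutamate receptors, read 123, 126 and 123 CPM in BS2 against 3 counts in SB2 together, a ratio of 2020 (690 to 9780). Lamp5, a marker of a class of cortical interneurons, read 316, 311 and 302 CPM in BS2 and 0.171, 0.2 and 0.122 CPM in SB2, with a log2 fold change of -10.83 ± 0.13 (SE). Slitrk1, a synaptic adhesion protein, read 157, 147 and 161 CPM in BS2 and 0.0837 CPM on average in SB2. Other genes at this end were Gpr26, Grin2b and Grm5, an orphan receptor and both ionotropic and metabotropic glutamate receptors, at 487, 483 and 251 CPM on average in BS2 and 0.115, 0.199 and 0.117 CPM in SB2. Without SB2 replicate 1 their log2 fold changes moved to -13.58, -12.19 and -12.62, Grin2b moved to -10.58 without SB2 replicate 3, Cacng3 moved to -13.91, and without SB2 replicate 3 Fam163b moved to -13.73. Myt1l, a transcription factor of neuronal identity, averaged 308 CPM in BS2 and 0.141 CPM in SB2.

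Promoters of genes at both ends of the fold change order were searched for 3 motifs on both strands. Promoters come from RefSeq on GRCm38.p6 and cover 250 bases before to 50 bases after an annotated start. The motifs were the letters TATAAA of the box where transcription factor TFIID binds, the core TGTGGT of RUNX sites and the GC box GGGCGG, none of which contains another. They were counted for the 50 genes with the largest fold changes each way among genes at 100 CPM or more in the group where they were higher. Genes below that level with larger fold changes, such as Camp and Fezf2, are therefore not in these sets. Promoters were at hand for 37 of the 50 higher genes (43 promoters) and for 34 of the 50 lower genes (58 promoters). TATAAA occurred in 39.5% of promoters of the higher genes, in 3.45% of promoters of the lower genes and in 7.66% of the 15583 promoters of genes tested. GGGCGG occurred in 41.9%, 39.7% and 58.6%, and TGTGGT in 18.6%, 13.8% and 12.8%. Over all 32851 promoters of the table, the shares were 13.6% for TATAAA, 35.7% for GGGCGG and 16.8% for TGTGGT. These shares are descriptions, and the genes behind them are not independent.

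Neuronal genes were lower in SB2 throughout. All 12 pan-neuronal genes were called lower, with a median log2 fold change of -6.84, and they summed to 117.5 to 170.9 CPM in SB2 and 10300 to 10530 CPM in BS2. Syt1, the calcium sensor of vesicle release, read 13, 1.8 and 14 CPM in SB2 and 2080, 1970 and 2210 CPM in BS2. Of 11 genes of excitatory cortical neurons, 10 were lower (median -7.61), among them Slc17a7, the vesicular glutamate transporter, at 3.86 against 1020 CPM, and Gria2, an AMPA receptor subunit, at 0.912 against 936 CPM. Of 11 interneuron genes, 10 were lower (median -7.9), and the remaining one was Pvalb, a calcium buffer of fast-spiking interneurons and fast muscle fibres, at 118, 92.4 and 16.4 CPM in SB2 and 57.3, 60.4 and 53 CPM in BS2. The low Pvalb value fell in the SB2 library that was low in muscle genes. Gad1, which makes the transmitter GABA, averaged 1.78 CPM in SB2 and 432 CPM in BS2.

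Glial genes split. Of 12 oligodendrocyte genes, 11 were lower (median -5.05), and the list summed to 177.7 to 282 CPM in SB2 and 2909 to 3246 CPM in BS2. Cldn11, a tight junction claudin of myelin, was the member not called. Among 7 tested genes of Schwann cells, the myelinating cells of peripheral nerve, 6 were higher and 0 lower (median 2.59). The Schwann cell list summed to 170.2, 221.2 and 205.9 CPM in SB2 and 28.49, 30.61 and 29.35 CPM in BS2. The lists of central and peripheral myelinating cells thus ran in opposite directions. Of 10 astrocyte genes, 8 were lower (median -3.33), with the glutamate transporter Slc1a2 at 20.6 against 4090 CPM (log2 fold change -7.64, or -8.42 without SB2 replicate 1). Gja1, the gap junction protein of astrocytes, was called the other way at 635, 673 and 794 CPM in SB2 and 191, 169 and 191 CPM in BS2, and bone cells also use it.

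Lists named for a reaction of brain cells held genes that bone and marrow also express. Of 12 genes listed for reactive astrocytes, 11 were higher in SB2 (median 6.58), and Lcn2 had the largest log2 fold change of the list (8.71). By level in SB2 the list was led by Vim, an intermediate filament of mesenchymal cells, at 1970 against 22 CPM. Timp1, an inhibitor of matrix metalloproteinases, came next at 745 against 2.22 CPM. In the same libraries Gfap and Aqp4, the defining astrocyte genes, were lower, with log2 fold changes of -3.2 and -3.75. Of 10 microglial genes, 4 were lower, 2 were higher and 4 were not called, near the 56.2% called over all genes. P2ry12, the purinergic receptor of microglia, read 10.9, 7.73 and 12.5 CPM in SB2 and 50.2, 44.2 and 50.3 CPM in BS2, while Tmem119 averaged 328 against 15.3 CPM and Olfml3 566 against 9.82 CPM. Tmem119 is also known as an osteoblast gene.

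**Figure D3:**
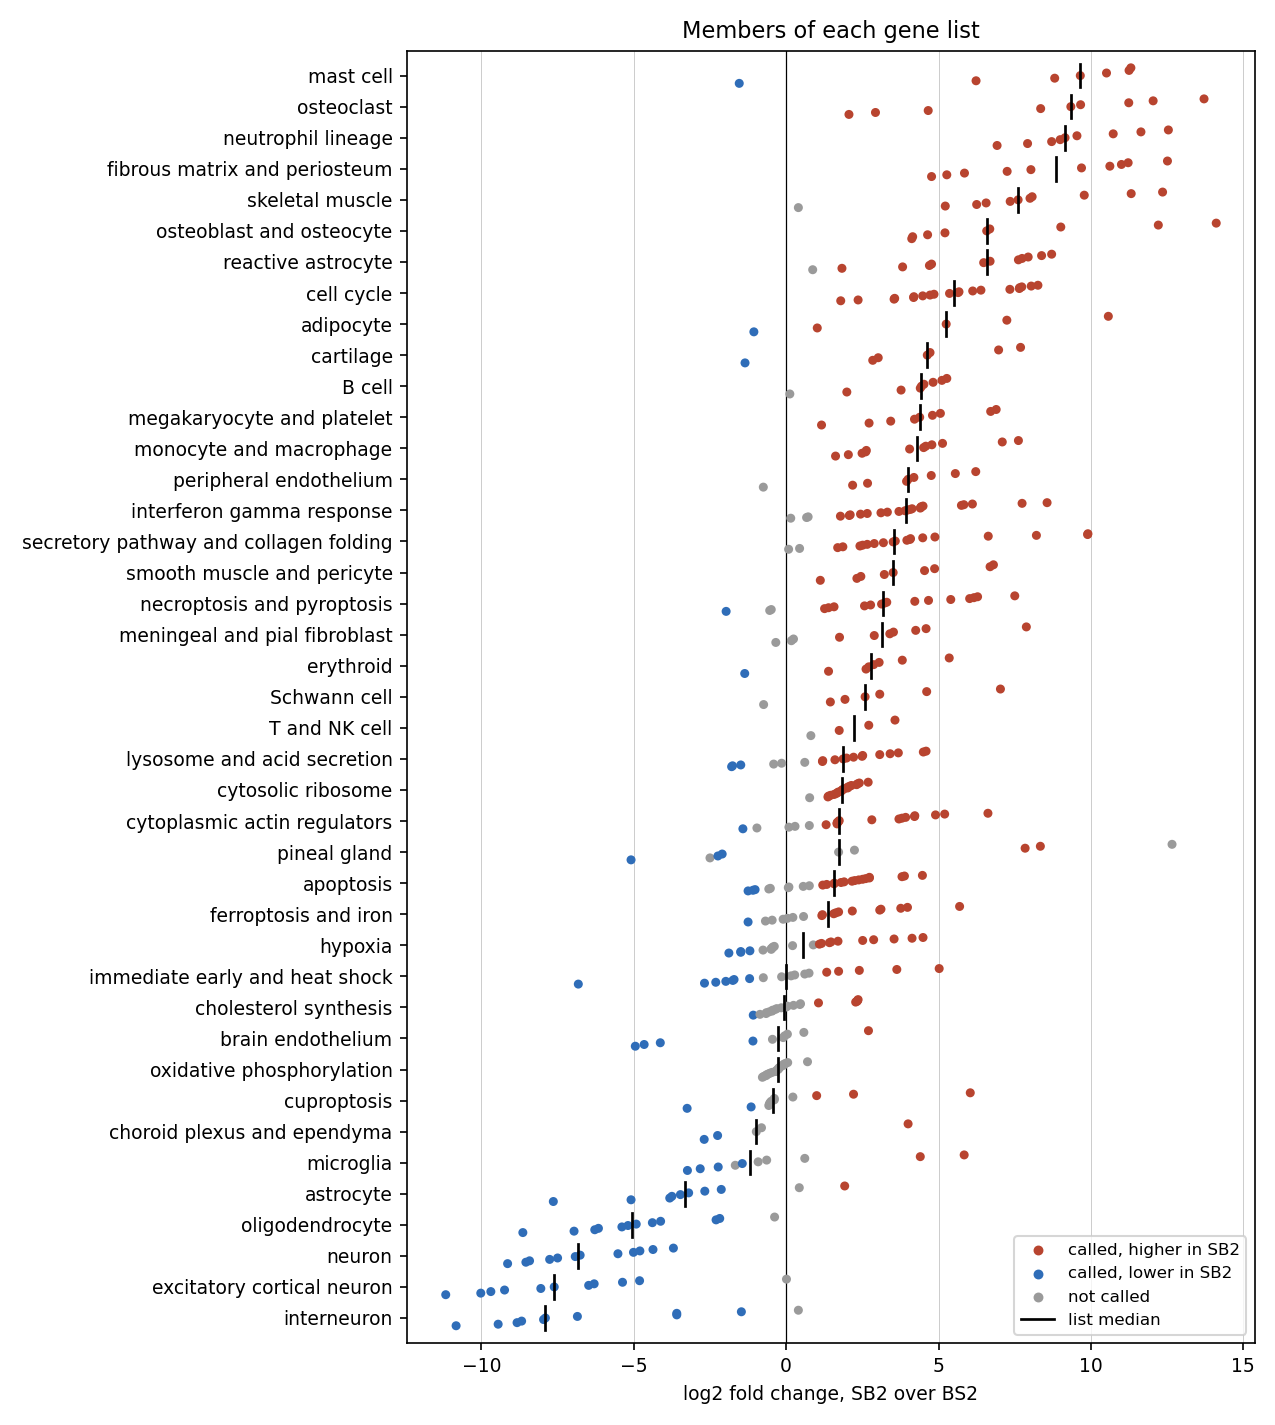
log2 fold change of SB2 over BS2 for each tested member of the gene lists, 1 point a gene, ordered by the list median (black bars). Red and blue points passed the call in either direction and grey points did not. Neuronal lists lie at the left, with medians from -7.9 to -6.84, and the bone and marrow lists lie at the right.

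Genes of vessels and borders were described next. Of 10 brain endothelial genes, 4 were lower, 1 was higher and 5 were not called, near the 56.2% called over all genes, and of 9 genes of peripheral endothelium 8 were higher (median 4). Slco1c1, a thyroid hormone and organic anion transporter of brain capillaries, averaged 2.01 CPM in SB2 and 62.5 CPM in BS2. Plvap, which forms the diaphragms of leaky capillaries and sinusoids, read 203, 235 and 205 CPM in SB2 and 15, 11.8 and 13.1 CPM in BS2. Cldn5, the tight junction protein of endothelium, overlapped between the groups. Of 10 genes of meningeal fibroblasts, 7 were higher (median 3.15), and of 9 genes of smooth muscle and pericytes 9 were higher (median 3.51), of which Rgs5, a pericyte regulator of G protein signalling, at a log2 fold change of 1.12, left the call without BS2 replicate 1 (0.99). Acta2, smooth muscle actin, read 623, 561 and 581 CPM in SB2 and 3.3, 7.75 and 6.03 CPM in BS2. Of 5 tested genes of choroid plexus and ependyma, 2 were lower and 1 was higher, near the 56.2% called over all genes. For these 5 genes no library read above the 4.03 CPM of Rsph1 in BS2 replicate 2. The other members did not pass the filter on low counts. Of these, Ttr averaged 4.2 against 0.0197 CPM and Otx2 3.89 against 0.0393 CPM. Folr1 and Tmem212 also averaged higher in SB2, and Ccdc153 averaged lower.

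Bone-forming and bone-resorbing genes were higher in SB2 in every case tested. This held for 9 of 9 osteoblast and osteocyte genes (median 6.58), 10 of 10 genes of fibrous matrix and periosteum (median 8.86) and 9 of 9 osteoclast genes (median 9.34, or 8.35 with genes absent from a group set at their bound). Sp7, the transcription factor that commits osteoblasts, read 299, 252 and 305 CPM in SB2 and 0.649, 0.384 and 0.581 CPM in BS2. Ctsk, the collagen-cleaving protease of osteoclasts, read 1370, 1410 and 1290 CPM against 3.78, 4.03 and 4.58 CPM. Acp5, the tartrate-resistant phosphatase, averaged 494 against 0.112 CPM. Osteoclast genes varied little between the SB2 libraries, with a summed level from 2959 to 3251 CPM. Of 7 cartilage genes 6 were higher (median 4.63), and Sox9, a factor of chondrocytes and also of astrocytes, was lower at 9.53 against 24 CPM.

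Protein export genes went with the matrix genes. Of 20 genes of the secretory pathway and collagen folding, 18 were higher (median 3.55). Serpinh1, the collagen chaperone, read 2130, 2150 and 2400 CPM in SB2 and 5.66, 9.61 and 7.12 CPM in BS2, and Lox, which crosslinks collagen, averaged 1010 against 1.07 CPM. The lysosome and acid secretion list, which holds proton pump subunits used in both tissues, had 13 higher and 3 lower of 19. Its lower members were Atp6v1a at 182 against 621 CPM, Atp6v1b2 at 225 against 629 CPM, both subunits of the proton pump, and the carbonic anhydrase Car2 at 33.4 against 112 CPM.

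Marrow lineages were higher in SB2, with several single genes against the trend. All 9 neutrophil genes were higher (median 9.15), with S100a9, an alarmin stored in neutrophils, at 369, 481 and 289 CPM in SB2 and 0.472, 0.384 and 0.654 CPM in BS2. All 12 monocyte and macrophage genes (median 4.28) and all 9 megakaryocyte and platelet genes (median 4.38) were higher. Lyz2, lysozyme of myeloid cells, averaged 629 against 4.6 CPM, and Ppbp, a platelet chemokine, averaged 68 against 0.527 CPM, with a log2 fold change of 6.89 that moved to 8.3 without BS2 replicate 1, which held most of its BS2 counts. Of 9 B cell genes 8 were higher (median 4.44), and of 4 tested T and NK cell genes 3 were higher (median 2.23), with the highest level in any library at 4.86 CPM (Cd4). Of 7 mast cell genes 6 were higher (median 9.65, or 6.68 at the bounds), among them the tryptase Tpsab1 at 43.3 CPM on average in SB2. Kit, the receptor of mast cells and also of interneurons, was lower at 15.2 against 43.9 CPM. Of 5 fat cell genes 4 were higher (median 5.25, or 2.61 at the bounds), and Pparg, the adipogenic receptor, was lower at 6.23 against 12.9 CPM with a log2 fold change of -1.06 that left the call under upper-quartile factors (-0.94) and library totals (-0.97). Retn, the hormone resistin, was among the 4 at 1.25 against 0.611 CPM (log2 fold change 1.02, adjusted p of 0.0457, edgeR), and it lost the call with DESeq2 (1.01), RLE factors (1), all 12 libraries (1.02) and a replicate block (0.98), without BS2 replicates 1, 2 and 3 (1.07, 0.77 and 1.23) and without SB2 replicate 3 (0.61).

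Red cell and muscle genes varied between the SB2 libraries. Of 8 tested erythroid genes 7 were higher (median 2.79) and Epor, the erythropoietin receptor, was lower at 2.41 against 6.13 CPM. Hbb-bs read 828, 2920 and 953 CPM in SB2, a log2 fold change of 2.87 ± 0.82 (SE) with an adjusted p of 0.0282 (edgeR). It was no longer called without SB2 replicate 2 (2.07), without BS2 replicate 2 (2.55) without BS2 replicate 3 (2.71) or with a replicate block (2.77). Without BS2 replicate 1 it was 3.48 and called. The calls of Hba-a1, an alpha globin, Hbb-bt, another beta globin, and Alas2, the first enzyme of heme synthesis in red cells, were also lost without BS2 replicate 2 (2.75, 2.31 and 2.46), without BS2 replicate 3 (2.88, 2.63 and 2.65) and with the block (2.89, 2.46 and 2.49), against 3.05, 2.62 and 2.71 with all 6 libraries. Alas2 also lost its call without BS2 replicate 1 (3.09), Hba-a1 moved to 3.66 without that library, and without SB2 replicate 2 all 3 stayed called at 2.16, 1.93 and 1.87. Slc4a1, the anion exchanger of red cells, lost its call without any BS2 replicate, and Ermap without BS2 replicate 1, BS2 replicate 2 or SB2 replicate 2 and in the fit of all 12 libraries. Of the 7 higher erythroid genes, Hba-a2 alone kept its call in every one of these fits. Of 11 skeletal muscle genes 10 were higher (median 7.61), with Tnnt3, a fast troponin, at 362, 388 and 59.2 CPM in SB2 and an adjusted p of 0.0029 (edgeR). The log2 fold change of Myh1 moved from 7.35 to 6.71 without SB2 replicate 2. Taking the muscle and pineal lists out of the calls, a step added after the data were seen, left 4915 higher and 4767 lower genes.

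All 20 cell cycle genes were higher in SB2 (median 5.5). Mki67, which marks dividing cells, read 168, 159 and 176 CPM in SB2 and 1, 0.384 and 1.09 CPM in BS2, and Top2a, the topoisomerase of dividing cells, averaged 169 against 0.832 CPM. Of 20 cytosolic ribosome genes 19 were higher (median 1.84), with summed levels of 5964 to 6440 CPM in SB2 and 1501 to 1691 CPM in BS2. Of 20 actin regulators 15 were higher and 1 lower (median 1.73), the lower one being Wasl at 71.3 against 189 CPM. Oxidative phosphorylation differed from these lists. None of its 20 nuclear genes was called, with log2 fold changes from -0.78 to 0.7 and a median of -0.27, although 56.2% of all genes were. Most of the 20 had an adjusted p below 0.05 (edgeR) without reaching the fold threshold. Among these, Ndufs1 and Sdha were lower at -0.78 and -0.74 (adjusted p of 4.25e-07 and 5.51e-07, edgeR). Ndufa1 alone among these was higher, at 0.7 (adjusted p of 9.77e-05, edgeR). Atp5b, a catalytic subunit of ATP synthase, read 737, 734 and 683 CPM in SB2 and 870, 882 and 855 CPM in BS2, so its libraries did not overlap and its difference stayed under the fold threshold.

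Interferon and cell death genes were mostly higher in SB2. Of 24 interferon gamma response genes 21 were higher and 0 lower (median 3.94), among them B2m, the light chain of MHC class I, at 481, 449 and 525 CPM in SB2 and 34.2, 38.4 and 38.6 CPM in BS2. Cd74, the invariant chain of MHC class II, averaged 52.3 against 0.897 CPM, and its log2 fold change of 5.83 moved to 6.61 without BS2 replicate 2. Of 18 necroptosis and pyroptosis genes 15 were higher (median 3.17), with Ripk1, the kinase that starts necroptosis downstream of TNF receptors, at 53.6, 50.2 and 60.4 CPM in SB2 and 6.25, 5.31 and 4.87 CPM in BS2. Cyld, a deubiquitinase that acts on that pathway, was the lower member at 38.4 against 149 CPM. Of 25 apoptosis genes 16 were higher and 3 lower (median 1.58). Mcl1, an anti-apoptotic protein, averaged 255 against 72.6 CPM, and Casp9, the initiator caspase, averaged 14.2 against 33.3 CPM. The other lower members lay near the fold threshold. Bcl2l1, an anti-apoptotic protein, at -1.02, left the call under upper-quartile factors (-0.9) and library totals (-0.93) and without BS2 replicate 2 (-0.99), SB2 replicate 1 (-0.97) or SB2 replicate 3 (-0.98). Cycs, cytochrome c, at -1.09, left it under upper-quartile factors and without SB2 replicate 3 (both -0.98). Since neutrophils, macrophages and osteoclasts use many of these genes, their part was not tested.

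Lists for iron, copper and low oxygen had members called in both directions. Of 18 tested ferroptosis and iron genes 11 were higher and 1 lower (median 1.38). Hmox1, heme oxygenase, read 202, 282 and 248 CPM in SB2 and 4.25, 4.93 and 4.94 CPM in BS2, and Acsl4, which loads polyunsaturated fatty acids into membranes, was the lower member at 57.4 against 135 CPM. Of 12 cuproptosis genes 3 were higher and 2 lower (median -0.44), the lower ones being Dlat, a lipoylated subunit of pyruvate dehydrogenase, at 55.6 against 122 CPM and the copper transporter Atp7b at 0.349 against 3.36 CPM. Of 22 hypoxia genes 10 were higher and 4 lower (median 0.55). Over all genes tested 28.6% were higher and 27.6% lower, and the shares of hypoxia and cuproptosis genes called in either direction lay near the 56.2% of all genes, so the counts of these lists are no result about them. The higher members included P4ha1 and P4ha2, prolyl hydroxylases of collagen, at 268 against 46.7 CPM and 140 against 12 CPM. The lower ones included Bnip3, a mitophagy receptor, at 12.5 against 45.7 CPM and Pdk1, which limits pyruvate entry to mitochondria, at 17.3 against 48.1 CPM. Vegfa, the vessel growth factor induced by low oxygen, averaged 113 and 97.3 CPM and was not called.

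Of 18 immediate early and heat shock genes, 5 were higher and 7 lower (median 0.01), near the 28.6% and 27.6% of all genes. Egr1, an activity-induced factor, read 86.5, 59 and 75.8 CPM in SB2 and 239, 235 and 247 CPM in BS2, and Hsp90aa1, a cytosolic chaperone, averaged 257 against 1010 CPM. Hspb1, a small heat shock protein, and Atf3, a stress-induced factor, were higher at 20.4 against 1.64 CPM and 5.16 against 0.151 CPM.

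Pairs of related genes were listed with results of the series known, so their counts are a description. Of 34 pairs of related genes, 33 had both members tested, 24 had both called, and 16 were called in opposite directions, with 2 pairs higher together and 6 lower together, where 28.6% of all genes were higher and 27.6% lower. In the profilins, which bind actin monomers, Pfn1 had a log2 fold change of 2.94 ± 0.11 (SE) and Pfn2 of -2.69 ± 0.07. In the polypyrimidine tract proteins, regulators of splicing, Ptbp1 stood at 3.35 ± 0.09 and Ptbp2, the form of developing neurons, at -1.54 ± 0.07. In the membrane fusion proteins Snap23 stood at 2.02 ± 0.08 and Snap25 at -7.5 ± 0.46. In the proton pump Tcirg1, the subunit needed by osteoclasts, stood at 4.59 ± 0.17 and Atp6v0a1 at -2.43 ± 0.08. In the hexokinases, which trap glucose, Hk2 stood at 4.13 ± 0.26 and Hk1 at -1.83 ± 0.08, and in lactate dehydrogenase Ldha stood at 1.16 ± 0.09 and Ldhb at -3.37 ± 0.13. Counting that splits reads of close relatives could change a member's value.

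**Figure D4:**
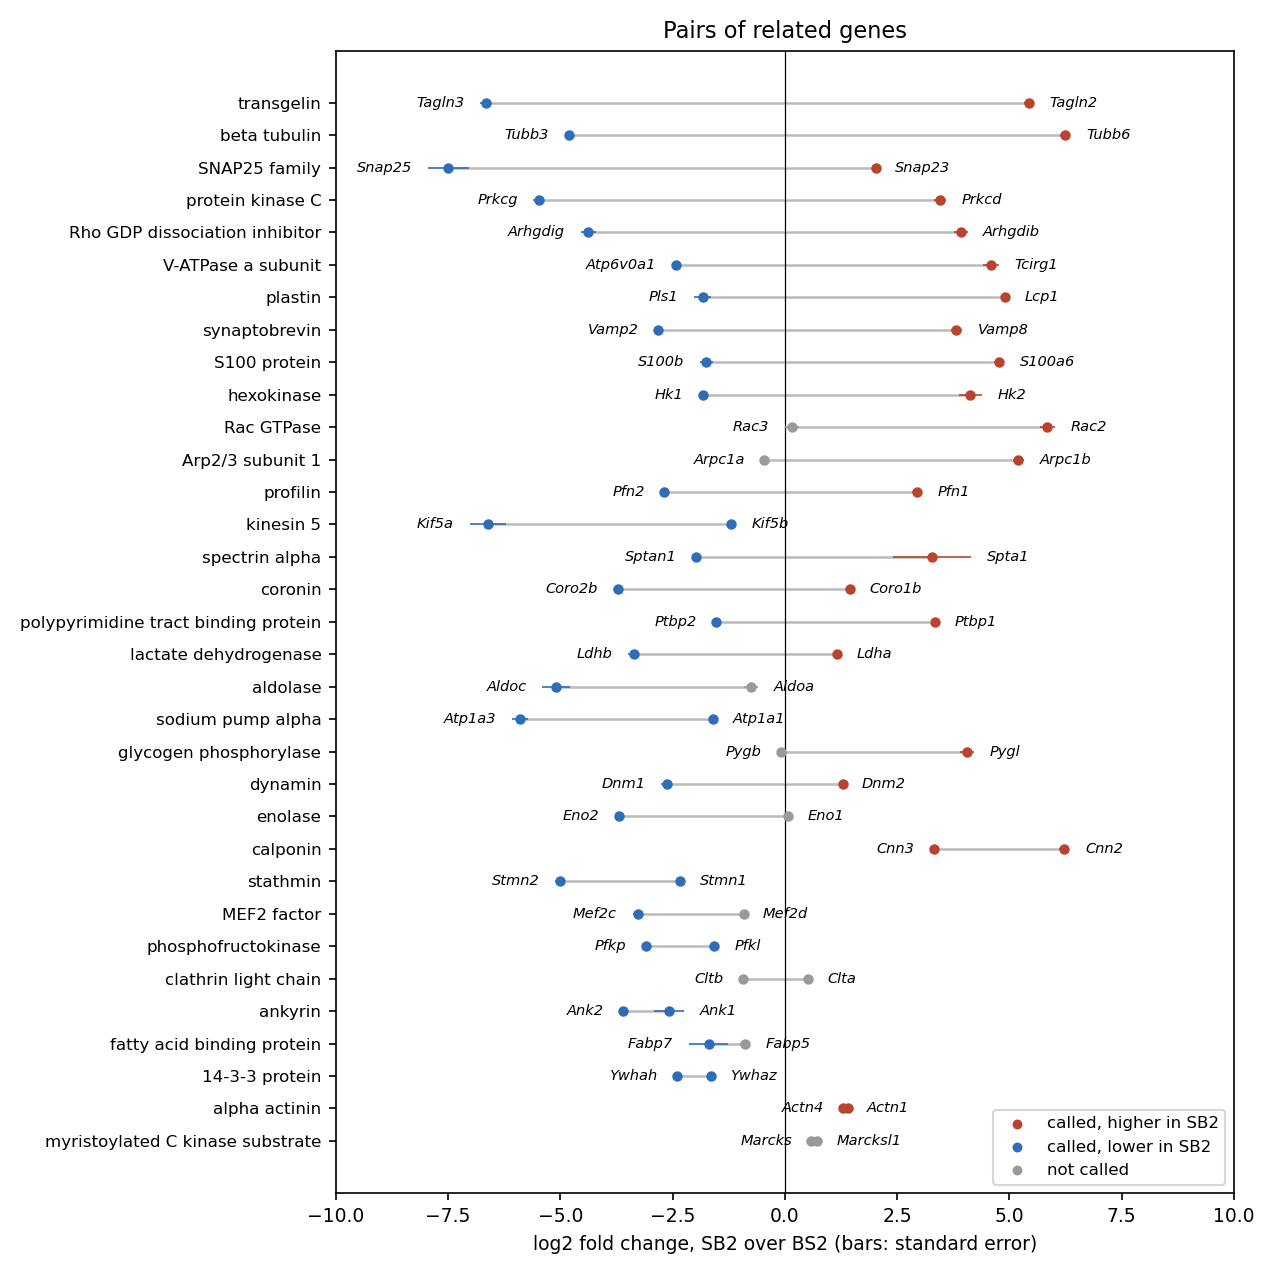
log2 fold change of SB2 over BS2 for both members of 33 pairs of related genes, with standard error bars and a line joining the pair. In 16 pairs the red member lies right of 0 and the blue member left of it, and in the others both lie on one side or a member was not called.

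Called genes also differed in kind and in size on the genome, read from GENCODE M21. Protein-coding genes lower in SB2 spanned a median of 41.3 kb from first to last base, against 19.2 kb for those higher and 23.7 kb for those not called. Spans above 100 kb made up 27.3% of the lower, 11.1% of the higher and 11.2% of the uncalled genes. Of 481 lincRNA genes tested, 109 were higher and 232 lower, so 70.9% were called, against 55.1% of 14667 protein-coding genes. Meg3, an imprinted noncoding RNA, read 193, 129 and 216 CPM in SB2 and 6480, 5860 and 6520 CPM in BS2, and H19, another imprinted noncoding RNA, averaged 473 against 0.176 CPM.

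Among genes at 100 CPM or more in both groups, those with the smallest differences included BC005537, Slc6a8, Fads1, Tbl1x and Prdx5. Fads1, a fatty acid desaturase, read 160, 160 and 156 CPM in SB2 and 160, 158 and 155 CPM in BS2. Slc6a8, the creatine transporter, averaged 117 ± 5.19 and 116 ± 9.83 CPM (SD, n = 3). Their libraries overlapped between the groups.

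The day 2 pair was then set against the later pair, BS6 minus SB4, in which BS6 carried the bone transcripts and SB4 the brain transcripts. Of 16916 genes tested in both pairs, 8404 were called in both, and 8401 of these had opposite signs for the SB group minus the BS group. The 3 with the same sign, named after their values were seen, were Ptgs2, Myh8 and Chrdl2, and Myh8 was not called without SB2 replicate 1 (0.98). The contrast of both differences (SB2 minus BS2 minus BS6 plus SB4, 12 libraries, edgeR) called 258 of 18068 genes (1.43%), 99 with a positive and 159 with a negative value, and 4087 genes had an unadjusted p below 0.05. The sign of a contrast does not say which pair had the larger difference. As labelled, the contrast sets both SB groups against both BS groups, and tissue and site of injury cannot be told apart in it. By content, SB2 is set against BS6 and BS2 against SB4, where the labelled day and site of injury change together and cannot be told apart, and whether the labels of the injury site hold in libraries whose tissue labels did not was not tested. One library of the later pair stood apart, BS6 replicate 2, with neutrophil genes at 28240 CPM in sum against 1586 and 3764 CPM in the other two and matrix genes at 28250 CPM against 101100 and 109700 CPM. Without it the contrast called 225 genes with a positive and 361 with a negative value. Without BS6 replicates 1 and 3 in turn the counts were 210 and 335, and 196 and 201. Leaving out BS2 replicates 1, 2 and 3 gave 40 and 59, 40 and 52, and 47 and 38. Leaving out SB2 replicate 1 gave 36 and 56, SB2 replicate 2 gave 93 and 139, and SB2 replicate 3 gave 108 and 89. Leaving out SB4 replicates 1, 2 and 3 gave 31 and 31, 49 and 58, and 33 and 40. The counts of this contrast thus moved with most of the libraries left out.

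The 6 largest positive contrasts by the naming rule follow. Prg4, the lubricin of joint and tendon surfaces, read 1000, 957 and 1530 CPM in SB2 and 15.3, 55.6 and 20.2 CPM in BS6, with at most 9.93 CPM in any BS2 or SB4 library, and its contrast was 3.67 ± 0.81 (SE, adjusted p of 0.0355, edgeR). Timp1 read 802, 553 and 880 CPM in SB2 and 142, 47.2 and 156 CPM in BS6, with a contrast of 2.53. Serpina3n, an acute phase protease inhibitor, averaged 155 CPM in SB2 and 32.5 CPM in BS6, and 10.9 and 11.1 CPM in BS2 and SB4. Among the bone-rich libraries these 3 genes thus read higher in every SB2 library than in any BS6 library. Ptgs2, the inducible cyclooxygenase, read 96.1, 32.4 and 65 CPM in SB2 against 9.06, 12 and 17.2 CPM in BS6, and its call between SB2 and BS2 (log2 fold change 1.51, adjusted p of 0.0312, edgeR) was lost without SB2 replicate 3 (1.52) or without any BS2 replicate (1.43, 1.46 and 1.6) and with a replicate block (1.4). Dio2, which activates thyroid hormone, averaged 108 and 22.8 CPM in SB2 and BS6, with 72.9 and 87.2 CPM in BS2 and SB4. When each of the 12 libraries was left out in turn, Prg4 lost its call in the contrast in 8 fits, Timp1 in 8, Serpina3n in 9 and Ptgs2 in 6, and Dio2 and Oas1c in none. Oas1c, of the interferon-induced oligoadenylate synthetase family, differed instead among the brain-rich libraries, at 82.8, 70.3 and 79.9 CPM in SB4 and 1.3, 1.47 and 1.38 CPM in BS2. Oas1c lies at chr5:120800194-120812514 beside close relatives, so its reads are uncertain.

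Genes with a negative contrast included Slc47a1, an organic cation exporter expressed by meningeal fibroblasts, at 71.4, 77.8 and 69.7 CPM in SB2 and 114, 217 and 155 CPM in BS6, with 6.93 CPM on average in BS2 and 1.98 CPM in SB4. Slc26a7, an anion transporter, averaged 59.3 and 90.2 CPM in SB2 and BS6, and 4.85 and 1.28 CPM in BS2 and SB4. Both genes read higher in every BS2 library than in any SB4 library, and SB2 and BS6 overlapped for Slc26a7 only. H2-Ea-ps, an MHC class II pseudogene, read 30.2, 26.8 and 30.9 CPM in SB2 and 136, 143 and 69.5 CPM in BS6. Sowaha averaged 0.27 CPM in SB2 and 2.46 CPM in BS6, with 52.7 and 60.9 CPM in BS2 and SB4. A830036E02Rik averaged 0.979 and 8.23 CPM in SB2 and BS6, and Cnih3, a cornichon partner of AMPA receptors, averaged 0.038 CPM from 2 counts in SB2 and 0.333 CPM in BS6. For the last 3 genes BS2 and SB4 overlapped, and every SB2 library read lower than any BS6 library. Cnih3, with a contrast of -3.03, ranged from -5.65 to -2.52 over the 12 fits without a library, the former without SB2 replicate 1, which held both of its SB2 counts. It lost its call in 9 of those fits, H2-Ea-ps in 10, Slc47a1 in 7 and Slc26a7 in 8, and A830036E02Rik and Sowaha in none.

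**Figure D5:**
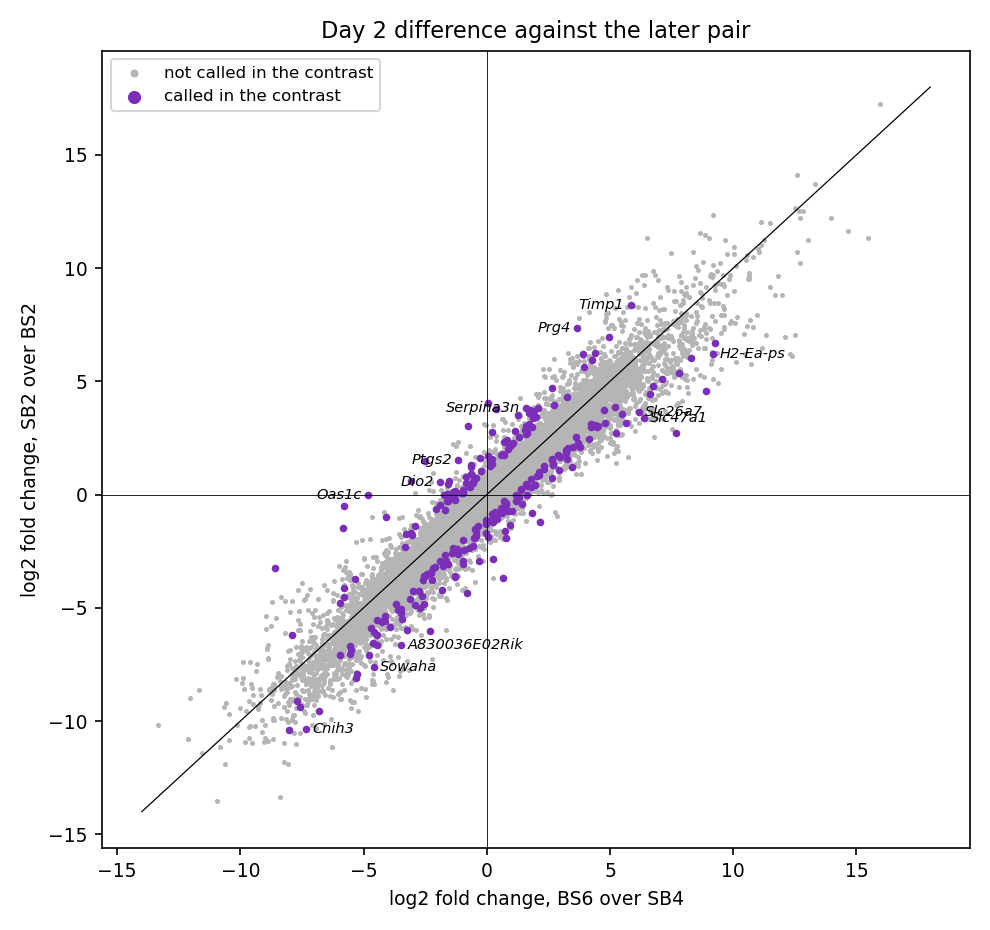
log2 fold change of SB2 over BS2 (vertical) against BS6 over SB4 (horizontal) for 16916 genes, with the line of equal values. The 258 genes called in the contrast are purple where tested in both pairs, and the 12 named genes are labelled, with Oas1c and Prg4 above the line and Cnih3 and Sowaha below it.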

How the data were processed

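RNA with poly(A) tails from mouse tissue was sequenced in 12 libraries of 4 labelled groups, 3 each, of which 6 are compared here. The authors trimmed reads with fastp, aligned them to mm10 with HISAT2 2.1.0 and deposited a matrix of raw, whole-number counts. The counting program, annotation, use of strand and whether ComBat_seq had been applied are not given in the sources used here, so overlapping, antisense and paralogous genes are uncertain. The test was the robust quasi-likelihood test of edgeR 4.0.16 (R 4.3.3) after filterByExpr (minimum count 10) and TMM scaling, with Benjamini-Hochberg adjustment over all genes tested, with DESeq2 1.42.0 as an alternative, and the scripts were tested on simulated data. P-values measure the spread between samples. CPM use TMM factors over all 12 libraries. Counting intervals cover counting error only. A fold against a group with no count was set against 3 counts per library. Coordinates follow GENCODE M21 (22022 symbols matched). Named genes were the 4 highest members of each list and up to 3 called against it, the 10 largest fold changes each way at 100 CPM or more, the highest and least different genes, paralog pairs and the 6 largest contrasts each way. The members, lists and pairs were chosen with earlier results of these data known, and no set test was run. Some genes and sequences that the rule names are not reported here. Other settings are described in the closing section.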

Additional observations from a re-analysis of the deposited data

Results flagged for a closer look

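A set of 12 genes differed between the day 2 pair and the later pair by the test of the difference itself, the contrast SB2 minus BS2 minus BS6 plus SB4 on the log2 scale (edgeR quasi-likelihood test over 12 libraries). The positive values were 4.78 for Oas1c, 3.67 for Prg4, 2.65 for Ptgs2, 2.53 for Timp1, 2.44 for Dio2 and 2.21 for Serpina3n. The negative values were -3.2 for A830036E02Rik, -3.03 for Cnih3, -3.02 for Sowaha, -3.01 for H2-Ea-ps, -2.98 for Slc47a1 and -2.58 for Slc26a7. Oas1c, Dio2, A830036E02Rik and Sowaha stayed called in all 12 fits that left out a library, with ranges of 4.43 to 5.23, 2.24 to 2.66, -3.6 to -2.94 and -3.37 to -2.77. The others lost the call in 6 (Ptgs2) to 10 (H2-Ea-ps) of those fits and kept their direction. Ptgs2 ranged from 2.24 to 2.97, H2-Ea-ps from -3.23 to -2.75 and Cnih3, the widest, from -5.65 to -2.52. Cnih3 and H2-Ea-ps also lost the call with a replicate block.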

How the results depend on the processing

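The day 2 counts of 4927 higher and 4770 lower genes stayed within 1.5 times under DESeq2 (5227 and 5195), other normalizations, a pooled fit of 12 libraries, a test against a 2-fold change and each library left out (4975 to 5087 higher, 4777 to 4946 lower). Asking for 10 counts in every library tested fewer genes and gave 3178 lower genes. The upper-quartile factors moved the median log2 fold change of all genes from 0.01 to 0.13, and library totals to 0.1. The contrast with the later pair was less stable. DESeq2 called 218 genes with a positive and 482 with a negative contrast, against 99 and 159, and leaving out single libraries gave 31 to 225 and 31 to 361, with more calls without a BS6 library and mostly fewer without another; the cause was not tested. With a replicate block, 4915 genes were higher and 4758 lower, and the contrast gave 83 and 127. Same-numbered SB2 and BS2 libraries correlated at 0.024, 0.067 and 0.043 after group means were removed. With 3 libraries a group, these values cannot show whether same-numbered libraries share a mouse or a batch. Depth limits genes near 0.2 CPM, where 3 counts lie.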

Other observations

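Cholesterol synthesis, a list added after the values were seen and so given with no test of the list, was nearly level between SB2 and BS2. Of its 20 genes, 5 were higher, 1 was lower and 14 were not called, with a median log2 fold change of -0.08. Hmgcs1, an early enzyme of the pathway, read 105, 105 and 117 CPM in SB2 and 171, 167 and 171 CPM in BS2 and was not called. The summed level of the list was 835.5 to 876.8 CPM in SB2 and 837.1 to 910.2 CPM in BS2, so the groups overlapped.

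The pineal list, also added after the values were seen, had 2 higher, 3 lower and 4 uncalled genes of 9 tested, near the 56.2% called over all genes. Gnb3, a G protein subunit of photoreceptors and pineal cells, was one of the higher genes (log2 fold change 7.84), and it lost its call without BS2 replicates 1, 2 and 3 (7.77, 7.27 and 8.83) and without SB2 replicates 1 and 3 (7.67 and 7.25). Chgb, a granin of secretory granules in neurons and endocrine cells, read 103, 2.33 and 169 CPM in SB2 and 500, 525 and 515 CPM in BS2. Its libraries did not overlap, yet it was not called (adjusted p of 0.134, edgeR quasi-likelihood test), and it was called without SB2 replicate 2 (log2 fold change -1.92) and in the fit of all 12 libraries (-2.5). Without SB2 replicate 3 it was -3.27 and not called.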
